A study of Bos taurus with 10 samples.

Results

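The genes described here are *CLDN10* and 8 other components of the tight junction, 9 of the 20112 genes in the table of bovine early blastocysts. They comprise the claudins *CLDN1*, *CLDN3*, *CLDN4*, *CLDN6*, *CLDN7*, *CLDN10* and *CLDN12*, the occludin gene *OCLN*, and *TJP1*, which encodes the scaffold ZO-1. *CLDN10* was chosen by its fold change in these same embryos, since it is among the genes with the largest fall, and the others were added by their function. The difference of *CLDN10* between the groups is therefore given as a description without a test. The study sequenced 5 WT and 5 *SOX2* KO embryos, each a single in vitro produced bovine early blastocyst. At the zygote stage, BE3 mRNA, which encodes a cytosine base editor, was injected alone for WT and together with sgRNAs that create premature stop codons in *SOX2* for *SOX2* KO. The sample labels give an age of 7.0 days after fertilization for both groups. Base editing of zygotes can leave mosaic embryos, and the labels give neither the sex of the embryos nor whether they came from separate cultures, so p-values measure the spread between these samples.

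Tight junctions encircle the apical end of the lateral membrane in epithelial cells. Claudins cross the membrane and either seal the space between cells or form pores through it for small ions, occludin and the junctional adhesion molecules cross it alongside them, and ZO proteins on the cytoplasmic side tie them to actin. In the blastocyst, tight junctions of the trophectoderm hold the fluid of the blastocoel, and the inner cell mass lies inside this epithelium.

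Values are normalized read counts, that is, reads per gene scaled by the size factors of DESeq2. The WT embryos are named nc1 to nc5 and the *SOX2* KO embryos ko1 to ko5, as in the columns of the table. Embryos had 2223670 to 5134855 (WT) or 2578284 to 4337342 (*SOX2* KO) reads on genes, and the 18S ribosomal RNA gene *RN18S1* took 26.4% to 37.0% and 32.5% to 45.0% of them. *SOX2* itself averaged 78.2 in WT and 56.6 in *SOX2* KO embryos with overlapping groups (log2 fold change -0.55, limma adjusted p = 0.167), and edited bases cannot be seen in counts per gene. According to the paper, every sequenced blastocyst was genotyped with a portion of its cDNA library. The blastocyst markers *KRT8*, *GATA3*, *CDX2*, *POU5F1* and *CDH1* had at least 22 reads in every embryo. The summed level of 11 epiblast markers was 2653 to 3121 for WT but 1288 to 1754 for *SOX2* KO, that of 13 trophectoderm markers 27327 to 40655 and 38166 to 51928, and that of 10 hypoblast markers 1845 to 2362 and 2229 to 2627. The trophectoderm sum is mostly *KRT8* (means 17496 and 22437) and *KRT18* (9100 and 15124), whereas *GATA3* averaged 695 and 759 and *TFAP2C* 791 and 565. Of the 13 trophectoderm markers, 12 had a log2 fold change above 0, against 62.9% of all genes, and only *TFAP2C* was below 0. *KRT19* rose from 595 to 1487. Among hypoblast markers, 4 had a log2 fold change above 0 and 6 below. *APOA1* rose from 233 to 699 and *LAMB1* from 283 to 453, whereas *PDGFRA* fell from 207 to 54.3 and *HNF4A* from 94.6 to 13.0. Of these lists, 5 epiblast, 0 trophectoderm and 3 hypoblast markers passed the test and the fold threshold given in the next paragraph as lower, against 1.16% of all genes, and 0, 1 and 1 as higher, against 8.93%. Of the cumulus markers, which would mark cells carried over from the follicle, 8 had at most 17 reads in any embryo, and the sum of all 11 was 50.4 to 159 for WT and 93.6 to 485 for *SOX2* KO. The highest of these sums are mostly *CYP11A1*, a steroidogenic enzyme gene, which spanned 14.8 to 83.9 (WT) and 1.64 to 402 (*SOX2* KO), whereas the 10 other markers summed to 35.6 to 90.5 and 64.0 to 118. The part of these differences and of the *RN18S1* share in the results below was not tested.

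The groups were compared by limma, which fitted log2(normalized read count + 1) for 20056 genes, with p-values adjusted over all of them by the Benjamini-Hochberg method. A gene was called when its adjusted p did not exceed 0.05 and its fold change was 2 or more, or 0.5 or less. In *SOX2* KO embryos, 1792 genes (8.93%) were called higher and 232 (1.16%) lower. On the adjusted p alone, 10.4% of genes were higher and 3.20% lower, and among genes with a mean of 100 or more the shares were 6.62% and 8.16%. In 6.41% of all genes every *SOX2* KO embryo was above every WT embryo, and in 2.76% every one was below. At an unadjusted p under 0.05, 24.0% of all genes were higher and 8.37% lower, and 62.9% had a log2 fold change above 0. The median log2 fold change of all genes was 0.25. Among genes with a mean of 10 or more it was -0.04, and with quantile normalization -0.02. A small positive value thus lies near the middle when all genes are counted, and above it in those fits. Because of the added 1, fold changes of genes with few reads come out too small.

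*CLDN10* was 11.1 times as abundant in WT as in *SOX2* KO embryos, and no *SOX2* KO embryo came near the lowest WT embryo. It encodes a claudin that forms ion channels between cells, with cation-selective and anion-selective isoforms that counts per gene do not separate. Its normalized read counts were 93.1, 191, 113, 131 and 57.3 in the WT embryos nc1 to nc5. In the *SOX2* KO embryos ko1 to ko5 they were 14.5, 14.5, 3.49, 0.821 and 19.6. The WT embryo nc5 was the lowest of its group and nc2 the highest, whereas ko3 and ko4 had almost none of the transcript. Behind these values stand 630 reads of the WT group but 45 of the *SOX2* KO group, with 3 reads in ko3 and 1 read in ko4, which do not exceed the floor of 3 reads. WT averaged 117 ± 49.6 and *SOX2* KO 10.6 ± 8.03 (SD, n = 5 each), with a log2 fold change of -3.72 and a standard error of 0.52. Its position 4 by log2 fold change among the 232 genes called lower restates the rule by which *CLDN10* was chosen and is no separate result. The value lay between -4.04 and -3.17 when each embryo was left out in turn. In whole embryos, fewer cells of a type and less RNA per cell cannot be told apart.

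**Figure D1:**
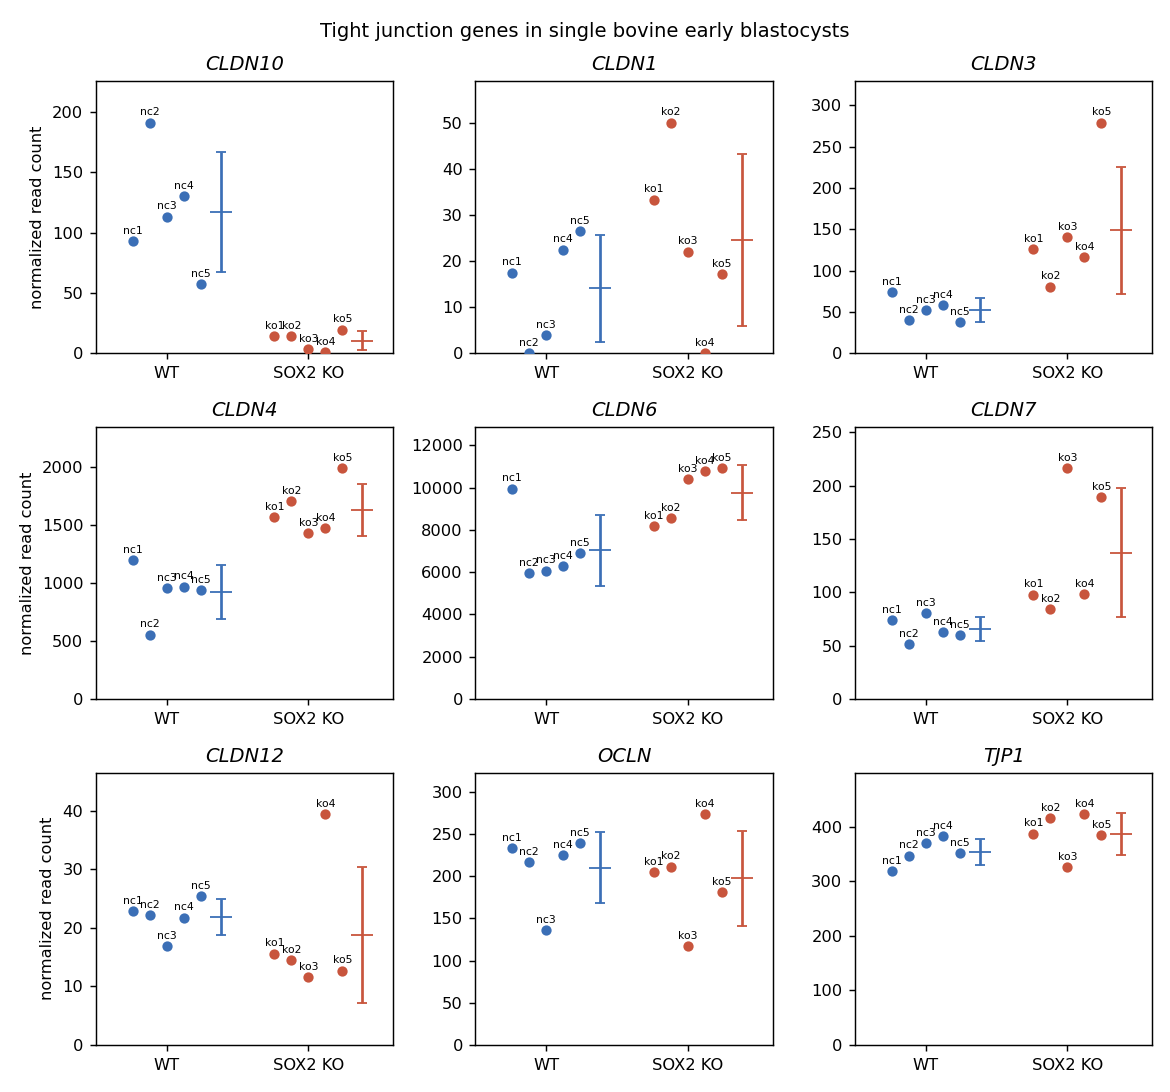
Normalized read counts (vertical axes, a separate linear scale for each gene) of the 9 tight junction genes in WT (blue) and *SOX2* KO (red) early blastocysts, where each point is 1 embryo and the horizontal mark with its bar is the mean and SD of 5 embryos. The WT embryos lie above the *SOX2* KO embryos in the *CLDN10* panel and below them in the *CLDN3*, *CLDN4* and *CLDN7* panels, and the groups overlap in the other 5 panels.

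None of the 8 other genes was called lower by limma, against 1.16% of all genes. Of the 8, *CLDN3* was called higher, against 8.93% of all genes, and 3 were higher on the adjusted p alone (*CLDN3*, *CLDN4* and *CLDN7*), against 10.4%, without overlap between the groups in each of the 3, against 6.41%. At an unadjusted p under 0.05, 4 were higher and 0 lower, against 24.0% and 8.37% of all genes. Of the 8, DESeq2 and edgeR on the recovered reads called 2 and 1 higher and 0 lower. Over all 20056 tested genes they called 1893 and 1686 higher and 243 and 299 lower. All 8 passed the filter on low values, as did *CLDN10*, and the smallest group mean among the 9 genes was the 10.6 of *CLDN10* in *SOX2* KO embryos. The median log2 fold change of the 8 genes was 0.61, against 0.25 for all genes and -0.04 for genes with a mean of 10 or more.

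*CLDN3* rose in *SOX2* KO embryos. It encodes a sealing claudin of simple epithelia and a receptor of *Clostridium perfringens* enterotoxin. The WT embryos had 74.0, 40.0, 52.7, 58.3 and 37.8 normalized read counts. The *SOX2* KO embryos had 126, 80.6, 141, 117 and 279. Every *SOX2* KO embryo lay above every WT embryo, with ko2 close to the highest WT value and ko5 far above the other *SOX2* KO embryos. The means were 52.6 ± 14.7 and 149 ± 76.2 (SD, n = 5 each), which is a log2 fold change of 1.40 (standard error, SE, 0.27; limma adjusted p = 0.00315). The 95% interval of the fold change was 1.78 to 3.90, and the call was made in 20 of 20 fits, the main one included.

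*CLDN4*, the neighbour of *CLDN3* in the RefSeq annotation of the assembly ARS-UCD2.0, was also higher in *SOX2* KO embryos, by less than 2-fold. It encodes a sealing claudin that binds the same enterotoxin. Its normalized read counts were 1204, 558, 958, 971 and 944 in nc1 to nc5. In the *SOX2* KO embryos they were 1570, 1707, 1436, 1474 and 1992. The groups did not overlap, and the WT embryo nc2, the smallest library, stood below the other WT embryos. With means of 927 ± 232 and 1636 ± 225 (SD, n = 5 each), the log2 fold change was 0.85 (SE 0.18; limma adjusted p = 0.00633, 95% interval of the fold change 1.39 to 2.35). The adjusted p passed in 20 of 20 fits and the threshold on the fold change in 0.

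*CLDN7* was higher in *SOX2* KO embryos as well, just under the threshold on the fold change. It encodes a claudin that occurs in tight junctions and along the lateral membrane of epithelial cells. The WT embryos had 74.0, 51.9, 80.5, 62.9 and 60.2 normalized read counts. Those of the *SOX2* KO group had 98.0, 84.5, 216, 98.6 and 189. All *SOX2* KO embryos were above the WT embryos, but ko1, ko2 and ko4 only by a little, while ko3 and ko5 were far higher. The means were 65.9 ± 11.4 and 137 ± 60.7 (SD, n = 5 each), with a log2 fold change of 0.96 (SE 0.25, limma adjusted p = 0.0173, 95% interval of the fold change 1.36 to 2.78). Without ko3 the adjusted p was 0.0544 and without ko5 it was 0.0627, so the difference did not pass the test without either of these embryos. Both thresholds were passed in 7 of 20 fits, among them DESeq2 and those without ko1, ko2, ko4, nc1 or nc3.

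*CLDN6*, a claudin of early embryonic epithelia, did not pass the test. Its normalized read counts were 9949, 5948, 6069, 6302 and 6889 in the WT embryos. The *SOX2* KO embryos had 8168, 8564, 10411, 10772 and 10906. Of the WT embryos, nc1 lay within the *SOX2* KO range and the other 4 lay below it. The means were 7031 ± 1671 and 9764 ± 1297 (SD, n = 5 each), with a log2 fold change of 0.49 (SE 0.22, limma adjusted p = 0.122) and a 95% interval of the fold change of 1.03 to 1.92. The adjusted p passed 0.05 in 3 of 20 fits, with DESeq2, with quantile normalization and after rescaling by the median log ratio. *CLDN6* and its relative *CLDN9* are neighbours in the annotation, and reads that match both could have been split or left out by the counting.

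*CLDN1*, which encodes a barrier claudin best known from the epidermis, differed between the groups by less than the spread within them. The WT embryos had 17.6, 0, 3.98, 22.5 and 26.6 normalized read counts. In the *SOX2* KO embryos the values were 33.4, 50.2, 22.1, 0 and 17.3. The embryos nc2 and ko4 had 0 reads, which at the floor of 3 reads allows up to 4.45 and 2.46 normalized read counts, while the highest embryos had 45 reads in WT (nc5) and 38 in *SOX2* KO (ko2). The means were 14.1 ± 11.6 and 24.6 ± 18.7 (SD, n = 5 each), and the log2 fold change of 0.73 had a standard error of 0.92 (limma adjusted p = 0.611). Its 95% interval of the fold change, 0.439 to 6.25, covers a fall as well as a rise, and the log2 fold change was -0.067 without nc2 and 1.70 without ko4.

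*CLDN12* encodes a claudin that lacks the C-terminal motif by which most claudins bind ZO proteins. It had 22.9, 22.2, 16.9, 21.8 and 25.4 normalized read counts in the WT embryos. In ko1 to ko5 the values were 15.6, 14.5, 11.6, 39.4 and 12.7. The *SOX2* KO embryos were below all WT embryos except for ko4, which was above all of them. The means were 21.8 ± 3.09 and 18.8 ± 11.7 (SD, n = 5 each), and the log2 fold change was -0.35 (SE 0.36, limma adjusted p = 0.522, 95% interval of the fold change 0.470 to 1.32).

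*OCLN*, which encodes occludin, differed between the groups by less than the spread between embryos. The WT embryos had 234, 217, 136, 225 and 240 normalized read counts. In *SOX2* KO, the values were 205, 211, 117, 274 and 181. The lowest embryo of each group, nc3 and ko3, lay well below the others, and the groups overlapped over most of their range. With means of 210 ± 42.2 and 198 ± 56.4 (SD, n = 5 each), the log2 fold change was -0.11 (SE 0.21, limma adjusted p = 0.746), and the 95% interval of the fold change was 0.685 to 1.25. Its direction is not settled, since without ko3 the log2 fold change was 0.063.

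*TJP1* varied least of the 9 genes within each group and did not pass the test between them. Its product ZO-1 binds the tails of claudins and occludin. The WT embryos had 318, 347, 370, 382 and 351 normalized read counts. For *SOX2* KO, they were 387, 416, 326, 423 and 385. All but ko3 of the *SOX2* KO embryos were above the highest WT embryo, by at most a small margin. The means were 354 ± 24.4 and 387 ± 38.4 (SD, n = 5 each), with a log2 fold change of 0.13 (SE 0.14, limma adjusted p = 0.551) and a 95% interval of the fold change of 0.892 to 1.34, which lies within the thresholds of 0.5 and 2.

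The spread between embryos was compared with the spread that counting alone gives. For *TJP1*, the coefficient of variation was 6.91% in WT and 9.92% in *SOX2* KO embryos, where counting gives 5.10% and 5.36%. For *CLDN12* in WT, the 14.1% between embryos was below the 20.5% of counting, whereas the 62.1% in *SOX2* KO, set by ko4, was above 24.4%. *CLDN6* had the most reads and varied by 23.8% in WT and 13.3% in *SOX2* KO embryos against 1.14% and 1.07% from counting. For *CLDN10*, the variation was 42.4% in WT against 8.87%, and 75.8% in *SOX2* KO against 32.4%. *CLDN3* and *CLDN7* varied by 51.3% and 44.2% in *SOX2* KO embryos and by 28.0% and 17.3% in WT. Counting gives 8.66% and 9.01% for these genes in *SOX2* KO and 13.2% and 11.8% in WT. The spread between embryos exceeded that of counting in each of these cases except *CLDN12* in WT. The reads carry no molecular identifiers, so floors and spreads from counting cover counting error only and are lower limits.

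The table holds 16 claudin genes. Of the 15 other than *CLDN10*, limma called 3 higher (*CLDN3*, *CLDN8* and *CLDN23*), against 8.93% of all genes, and 0 lower, against 1.16%. On the adjusted p alone, 5 of the 15 were higher, against 10.4%. Log2 fold changes were above 0 for 13 of the 15, against 62.9% of all genes, with a median of 0.85 against 0.25 for all genes. With quantile normalization, which moved the median of all genes to -0.02, 9 of the 15 were above 0 and their median was 0.62. At a minimum mean of 10, 7 of the 8 claudins left were above 0, with a median of 0.90 against -0.04 for all genes. Among genes with a mean under 10, to which 7 of the 15 belong, 14.1% of all genes were called higher, but none of these 7. The 3 called claudins are among the 8 with a mean of 10 or more. Of the 1792 genes called higher, 1229 had a mean under 10.

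*CLDN23*, a claudin with a long cytoplasmic tail, had 39.7, 8.90, 48.7, 76.1 and 39.5 normalized read counts in nc1 to nc5. In the *SOX2* KO embryos it had 177, 135, 124, 218 and 235. The groups were well apart, although nc2 alone was several times lower than the other WT embryos. It rose from 42.6 ± 24.1 to 178 ± 49.0 (SD, n = 5 each), a log2 fold change of 2.26 (SE 0.37, limma adjusted p = 0.000841), and was called in 20 of 20 fits. *CLDN8*, known as a barrier claudin of the distal nephron, had 3.82, 7.42, 1.99, 6.99 and 1.77 in the WT embryos and 50.1, 5.28, 34.9, 34.5 and 17.3 in the *SOX2* KO embryos. Its lowest *SOX2* KO embryo, ko2, lay within the WT range. It rose by 2.29 on the log2 scale (SE 0.55, limma adjusted p = 0.0115) on 24 reads in WT and 136 in *SOX2* KO embryos. With quantile normalization the adjusted p of *CLDN8* was 0.0504. The 7 remaining claudins, *CLDN5*, *CLDN9*, *CLDN11*, *CLDN15*, *CLDN18*, *CLDN19* and *CLDN20*, had means over the 10 embryos between 1.42 and 8.57 and at most 20 reads in any embryo. Of their 70 values, 17 were 0. None of the 7 passed the test, with limma adjusted p from 0.0614 to 0.998.

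**Figure D2:**
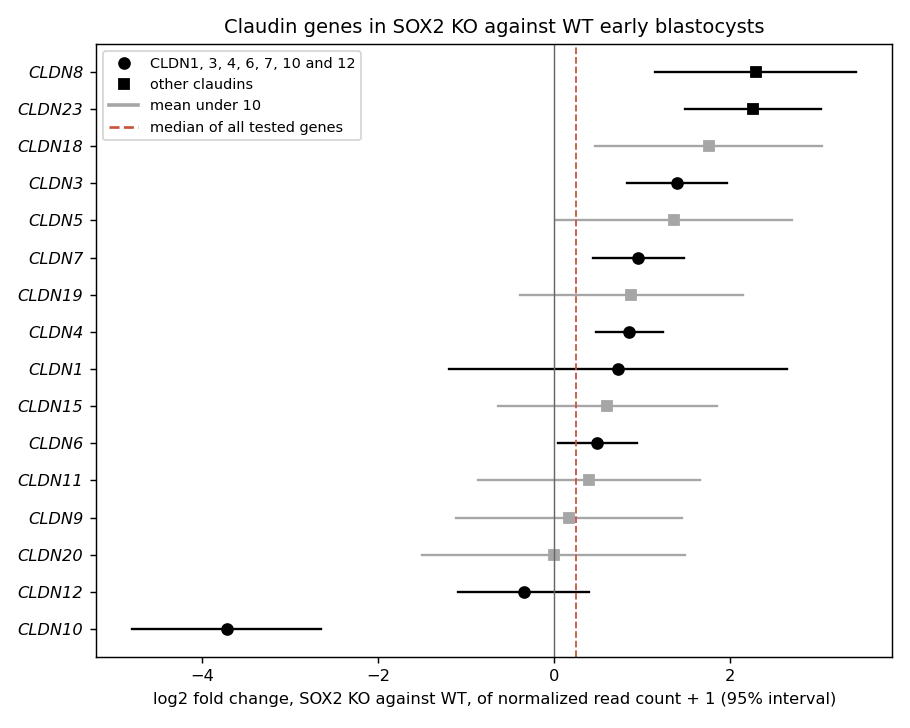
Log2 fold change (horizontal axis, *SOX2* KO against WT, of the normalized read count + 1) of the 16 claudin genes, ordered by value, with bars for the 95% interval, circles for the claudins among the 9 genes described first and squares for the others, grey where the mean over 10 embryos is under 10. *CLDN10* stands at -3.72 apart from the other 15 (13 of them above 0), and the 7 grey genes have the wide intervals of few reads, while the dashed line at 0.25 is the median of all tested genes.

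The other parts of the junction were described by lists of genes named for their place in it. Over the 4 lists and the claudins, without the 9 genes described first, 48 genes were tested, with *PALS1* under its older symbol *MPP5*. Of these, 5 were called higher, *CLDN8* and *CLDN23* among them, and 1 lower, against 8.93% and 1.16% of all genes. The median log2 fold change was 0.38 against 0.25.

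Among 12 transmembrane proteins other than claudins, which include *OCLN*, none was called by limma, DESeq2 or edgeR. At an unadjusted p under 0.05, 1 was higher and 2 were lower, against 24.0% and 8.37% of all genes. *F11R*, which encodes the junctional adhesion molecule JAM-A, was lower in *SOX2* KO embryos by less than 2-fold. It had 733, 770, 823, 571 and 701 normalized read counts in the WT embryos and 365, 413, 413, 510 and 415 in the *SOX2* KO embryos. The highest *SOX2* KO embryo, ko4, stayed below the lowest WT embryo, nc4. The means were 720 ± 94.7 and 423 ± 52.9 (SD, n = 5 each), with a log2 fold change of -0.76 (SE 0.15, limma adjusted p = 0.00325), and the adjusted p passed in 20 of 20 fits. *JAM3*, which encodes JAM-C, had means of 32.5 ± 6.22 and 17.4 ± 7.65 (SD, n = 5 each) without overlap and did not pass the test, with a log2 fold change of -1.004 (limma adjusted p = 0.0746). With quantile normalization *JAM3* was called lower (limma log2 fold change -1.17, adjusted p = 0.0387). *LSR*, which encodes angulin-1 of tricellular junctions, had 193 ± 37.8 and 214 ± 40.6 (log2 fold change 0.16, limma adjusted p = 0.580).

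Of 11 scaffold genes, which include *TJP1*, none was called by limma, DESeq2 or edgeR, and at an unadjusted p under 0.05 there were 4 higher and 0 lower, against 24.0% and 8.37% of all genes. All 11 log2 fold changes were above 0, against 62.9% of all genes. They spanned 0.07 to 1.80, with a median of 0.29 close to the 0.25 of all genes. At a minimum mean of 10, the median of the 9 scaffold genes left was 0.25, against -0.04 for all genes of that fit. With quantile normalization the median was 0.37 for the 11, against -0.02 for all genes. *TJP3*, which encodes ZO-3, had a log2 fold change of 0.07 (limma adjusted p = 0.816), which was -0.032 with edgeR and -0.026 without nc4. *CGN*, which encodes cingulin, had 0.29 (limma adjusted p = 0.216). *PATJ*, which encodes a partner of PALS1 in the Crumbs complex, went from 246 ± 26.9 to 335 ± 62.2 (SD, n = 5 each), a log2 fold change of 0.43 that did not pass the test (limma adjusted p = 0.0694).

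Among 10 tested genes of the polarity complexes, which set the apical side of the epithelium, 2 rose and 1 fell, against 8.93% and 1.16% of all genes. *PRKCI*, which encodes the atypical protein kinase C iota of the PAR complex, had 285, 291, 246, 288 and 250 normalized read counts in nc1 to nc5. In the *SOX2* KO embryos it had 136, 162, 137, 126 and 111. The groups were far apart, and the spread within each was small. It fell from 272 ± 22.04 to 134 ± 18.9 (SD, n = 5 each), a log2 fold change of -1.02 (SE 0.16, limma adjusted p = 0.00043). The adjusted p passed in 20 of 20 fits and the threshold on the fold change in 12, and the call was lost without ko4, ko5, nc2 or nc4, at a pseudocount of 5 and under each of the 3 other scalings. *PARD3B*, a relative of the PAR-complex gene *PARD3*, rose from 25.2 ± 12.3 to 59.3 ± 19.1 with overlapping groups (log2 fold change 1.31, limma adjusted p = 0.0256), and without ko1, ko3, ko5 or nc2 it was not called. *CRB2*, which encodes a Crumbs protein, rose by 2.39 on the log2 scale (SE 0.57, limma adjusted p = 0.0113) on 8 reads in WT and 55 in *SOX2* KO embryos.

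Of 8 genes of junction signalling and trafficking, *ARHGEF2* was called higher, against 8.93% of all genes. It encodes the RhoA exchange factor GEF-H1, which cingulin binds at junctions. It rose from 12.7 ± 5.996 to 30.2 ± 7.46 (SD, n = 5 each) without overlap, a log2 fold change of 1.25 (SE 0.35, limma adjusted p = 0.0244). Without ko1, ko5, nc1 or nc2, and with quantile normalization (limma log2 fold change 1.03, adjusted p = 0.0623), it was not called.

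**Figure D3:**
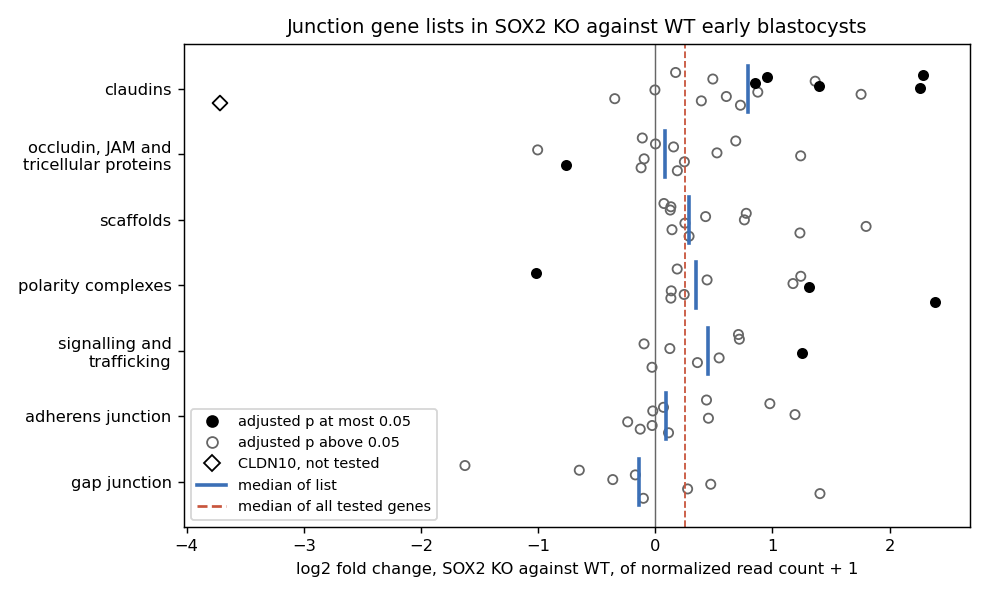
Log2 fold change (horizontal axis, *SOX2* KO against WT, of the normalized read count + 1) of the genes of 7 junction lists, where each circle is 1 gene, filled at an adjusted p of at most 0.05, the diamond is *CLDN10*, which is not tested, and the blue line is the median of the list. The claudins hold both the lowest value, that of *CLDN10* at -3.72, and the list median farthest above the dashed line at 0.25, the median of all tested genes, and the adherens and gap junction lists hold no filled circle.

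The neighbouring junctions of the same epithelium were set beside these lists. Of 10 adherens junction genes, none was called by limma, DESeq2 or edgeR, with 3 higher and 0 lower at an unadjusted p under 0.05, against 24.0% and 8.37% of all genes, and a median log2 fold change of 0.09. *CDH1*, which encodes E-cadherin, had 626 ± 195 in WT and 660 ± 139 in *SOX2* KO embryos (SD, n = 5 each; log2 fold change 0.11, limma adjusted p = 0.734). *JUP*, which encodes plakoglobin, had 1092 ± 217 and 1494 ± 312 (log2 fold change 0.45, limma adjusted p = 0.0851). Of 8 gap junction genes, none was called by limma, DESeq2 or edgeR, with 0 higher and 1 lower at an unadjusted p under 0.05, against the same shares, and a median of -0.14. *GJB5*, which encodes a connexin, had a log2 fold change of -0.65 (limma adjusted p = 0.160). The difference between the lists was not tested.

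The genes whose values over the 10 embryos were most like those of *CLDN10* were found among 11333 genes, those whose mean was 10 or more. Likeness was the root mean square difference between log2 values after each gene was centred on its own mean. This measure includes the difference between the groups, so genes with a similar fall come first. The 5 closest were *C1H21orf91* at 0.771, *GCM1* at 0.843, *FOLR3* at 0.852, *HNF4A* at 0.905 and *AVIL* at 0.965. *GCM1*, which encodes a transcription factor of trophoblast differentiation, averaged 37.0 in WT and 2.35 in *SOX2* KO embryos. *FOLR3*, of the folate receptor family, averaged 63.7 and 3.51. *HNF4A*, which encodes a nuclear receptor and is among the hypoblast markers called lower above, averaged 94.6 and 13.0. *AVIL*, which encodes the actin-binding protein advillin, averaged 49.7 and 8.36. In ko4, where *CLDN10* was lowest, *GCM1* had 0 reads and *C1H21orf91* the same 0.821 normalized read counts, which is 1 read.

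**Figure D4:**
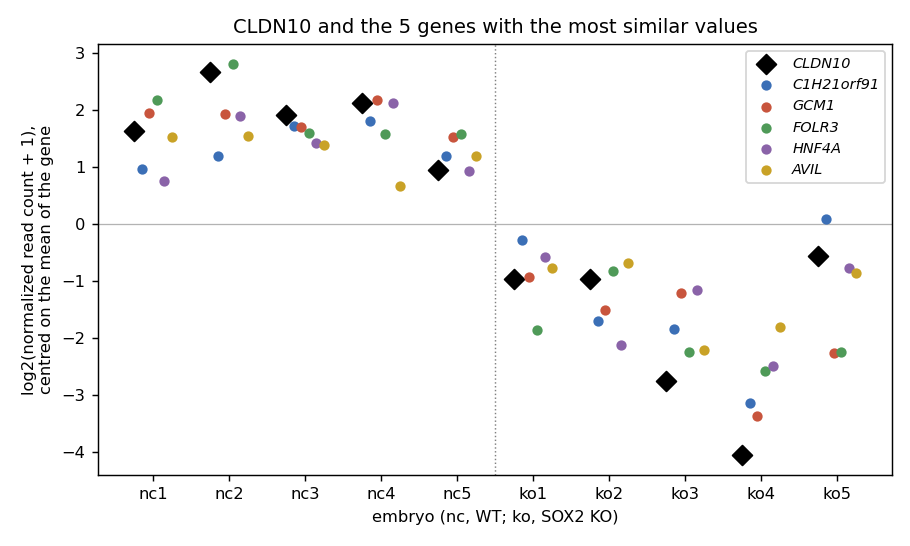
Log2(normalized read count + 1), centred on the mean of each gene (vertical axis), of *CLDN10* (diamonds) and the 5 genes with the smallest root mean square difference from it (circles, in colours by gene) in the 10 embryos (horizontal axis). Every gene lies above its mean in nc1 to nc5, and *CLDN10* and 4 of the others lie below it in every *SOX2* KO embryo, with *C1H21orf91* near its mean in ko5.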

How the data were processed

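Single blastocyst libraries were made by Smart-seq2, which amplifies cDNA of polyadenylated RNA by PCR. Trimming was by Trimmomatic, alignment to ARS-UCD1.2 by Hisat2 and counting by featureCounts. The authors then divided the counts by the DESeq2 size factor of each embryo and deposited this normalized signal. The annotation release, the strand setting and the handling of multi-mapped reads are not given in the sources used here, so reads of similar or overlapping genes may be shared. The size factor sets the level of each embryo by a median over genes, so differences are relative to that median.

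Each embryo has a step of which its values are whole multiples (201120 of 201120 values, 100%, tolerance 0.01 reads), and this gave back the reads. No gene had fewer than 11 reads in total. The groups were compared without covariates in R 4.3.3 by limma 3.58.1 (eBayes with trend) on log2(value + 1), for the 20056 genes whose mean was 1 or more. DESeq2 (version 1.42.0) and edgeR (version 4.0.16) on the recovered reads were alternatives. The fits were tested on simulated data first. The other alternatives were pseudocounts of 0.1 and 5, a minimum mean of 10 or no minimum, 3 other scalings, no threshold on the fold change, and each embryo left out in turn.

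The genes and lists were chosen with earlier results of these data known. Named were the 9 genes, the other claudins, genes of the junction and marker lists that were called or had the largest means, *SOX2*, and the 5 genes most like *CLDN10*. Columns were assigned to groups by name. The columns ko1 to ko5 do not follow the replicate numbers of the labels. The paper gives the age as D7.5 and the labels as 7.0 days. Levels were not compared between genes, and coordinates and sequences are not given, because the gene table used here describes ARS-UCD2.0 and holds no sequence. All 9 genes and all 16 claudins matched it by symbol.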

Additional observations from a re-analysis of the deposited data

Results flagged for a closer look

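In 6 of 48 groups of 5 embryos (24 genes in WT and in *SOX2* KO), the highest or lowest embryo lay far from the other 4 by Dixon's criterion, where chance gives about 2.4, since about 1 in 20 groups is flagged. *CLDN6* had 9949 normalized read counts in the WT embryo nc1 and 5948 to 6889 in the other WT embryos, and it is this embryo that overlaps the *SOX2* KO group. *CLDN12* reached 39.4 in ko4 against 11.6 to 15.6 elsewhere in the *SOX2* KO group. *OCLN* had 136 in the WT embryo nc3 and 217 to 240 in the others. *LSR* had 126 in the WT embryo nc4 and 201 to 217 in the others. *CGN* had 226 in the *SOX2* KO embryo ko3 and 304 to 320 in the others. *PATJ* had 442 in the *SOX2* KO embryo ko2 and 284 to 326 in the others. These are 6 different embryos, and the cause was not tested for any of them.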

How the results depend on the processing

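Across 19 alternatives, 423 of 455 fits of single genes kept the direction and the side of the threshold, 18 no longer passed, 8 newly passed and 6 changed sign. Of the 423, 19 were fits of *CLDN10*, which was chosen for its fall and is not tested. As a description only, its log2 fold change lay between -4.04 and -3.07 over the 19 alternatives. Those that changed sign were *CLDN1* without nc2 (-0.067), *OCLN* without ko3 (0.063), *TJP3* with edgeR (-0.032) and without nc4 (-0.026), and *CDH1* without nc4 (-0.0050) and without nc5 (-0.026). With an embryo left out, the ranges of these genes were -0.067 to 1.70 (*CLDN1*), -0.26 to 0.063 (*OCLN*), -0.026 to 0.21 (*TJP3*) and -0.026 to 0.23 (*CDH1*). Of the 8 genes other than *CLDN10*, 1 was called higher, with 2 by DESeq2, 2 after rescaling by the median log ratio, 3 on the adjusted p alone, and 1 to 2 with an embryo left out. Of the other tight junction genes, 5 were called higher, with 3 under quantile normalization and 3 to 10 with an embryo left out (10 without ko4, 3 without ko1, ko5 or nc2), and 1 was called lower, with 0 at a pseudocount of 5, 0 after rescaling by the median log ratio, 0 with equal totals, 2 on the adjusted p alone, and 0 to 1 with an embryo left out. Over all genes, 1792 were called higher, with 502 at a minimum mean of 10, 1002 at a pseudocount of 5, 629 under quantile normalization and 771 to 3057 with an embryo left out, and 232 lower, with 447 under quantile normalization, 641 on the adjusted p alone and 176 to 267 with an embryo left out. Of the calls, 88.5% were higher, with 58.5% under quantile normalization and 72.5% at a minimum mean of 10. The cause of these shifts was not tested. Few reads stand behind *CLDN10* in *SOX2* KO (45 reads), *CLDN1*, *CLDN8*, *CRB2* and the claudins with a mean under 10. No paired analysis was possible, because the labels do not pair WT with *SOX2* KO embryos, and ko1 to ko5 cannot be matched to their replicate numbers. The fit with a replicate block was therefore not run.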

Other observations

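The *SOX2* KO embryo ko4 was the lowest or highest of its group in several of these genes, a pattern chosen after the values were seen. Within its group it had the lowest *CLDN10* (0.821 normalized read counts) and *CLDN1* (0 reads), and the highest *CLDN12* (39.4), *OCLN* (274), *TJP1* (423) and *F11R* (510). It also had the lowest *JAM3* (4.93) and *PARD3B* (28.8). It had the most reads of its group, 4337342, and the lowest share of *RN18S1*, 32.5%. Such a place at the end of the group was not particular to ko4. The embryo ko5 had the highest *CLDN3* (279), *CLDN4* (1992), *CLDN6* (10906), *CLDN10* (19.6), *CLDN23* (235), *LSR* (269) and *JUP* (2009) of the *SOX2* KO group. It also had the lowest *PRKCI* (111). No test was made of a single embryo.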
